A study of Mus musculus with 20 samples.

Results

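The middle phalanx of digit 2, the second of its 3 segments counted from the palm or sole, was compared with the proximal phalanx, the segment next to the palm or sole, by messenger RNA sequencing of mouse embryos. The comparison took 8 libraries of the 20 in the series: 4 of the middle phalanx and 4 of the proximal phalanx of the same digit. Each group held 1 library from the forelimb at embryonic day 16 (E16), 1 from the hindlimb at E16, 1 from the forelimb at E17 and 1 from the hindlimb at E17. A library was a pool of phalanges from 20 embryos at E16 and from 10 embryos at E17. No treatment or mutation is named for either group, and the strain and sex of the embryos are not given in the sources used here. The middle and proximal libraries of the same stage and limb form a matched pair, and the 4 pairs were the units of the test. The p-values therefore rest on agreement between pairs that differ in stage and limb, and on a spread estimated in part from the other genes. It is not stated whether both libraries of a pair hold the same embryos. The other 12 libraries, from the distal phalanx of digit 2 and both phalanges of digit 1, serve only to place levels and to test differences between stages and limbs.

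Total counts ran from 70871735 to 79051749 in the middle and from 71678645 to 85666188 in the proximal libraries. Levels are in CPM, read counts per 1e+06 counts of the library with its size scaled by TMM, edgeR's trimmed mean method. Stage accounted for 54.4% of the variation in log2 CPM among the 8 libraries (sum of squares), position along the digit for 18.2% and limb for 11.4%. The second principal component, with 18.5% of the variance, put the middle library above the proximal one in 4 of 4 pairs. The limb labels were checked with Pitx1, a transcription factor made in the hindlimb. It lay between 0.13 and 0.61 CPM in the forelimb libraries and between 21.4 and 53.7 CPM in the hindlimb libraries. This check cannot show forelimb tissue in a hindlimb pool. Tbx5, a forelimb factor, was higher in the hindlimb middle than in the hindlimb proximal libraries, and its values are given with the limb comparison. The labels name the phalanx as the tissue and do not say what was left on it. A list of 20 epidermal genes summed to 19325 to 65338 CPM in middle and 20467 to 48522 CPM in proximal libraries, and a list of 20 cartilage matrix genes to 698 to 1667 CPM in middle and 867 to 2324 CPM in proximal libraries. Transcripts of skin and of skeleton were thus present in both groups.

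A digit forms from a column of cartilage that is divided by joints. Hox transcription factors of the 5′ ends of the HoxA and HoxD clusters act in the forming digits, and loss of their function shortens or fuses phalanges in mice and people. The middle phalanx is the segment that is short or absent in several inherited brachydactylies, and the thumb and big toe have no such segment.

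Of 14229 genes tested, 608 were higher and 699 were lower in the middle phalanx at a Benjamini-Hochberg adjusted p of at most 0.05, which is 9.19% of the genes tested in either direction, 4.27% higher and 4.91% lower. At least a 2-fold difference was reached by 107 of the higher and 194 of the lower genes. Of the 1307 genes called, 1278 differed the same way in 4 of 4 pairs, as did 28.6% of all genes tested. In 543 of those called the 4 middle and 4 proximal libraries did not overlap, as they did not in 5.65% of all genes tested. The calls were made from the same pairs, so both counts follow in part from the calling. The median log2 fold change over all genes was 0.01. Fold changes are log2 values of the middle over the proximal phalanx, given with the standard error of the edgeR quasi-likelihood fit. In a tissue of many cell types, fewer cells of a type and less RNA per cell cannot be told apart. Adding the other 12 libraries to the fit left 271 higher and 294 lower genes and ended the call of 82 of the 172 genes named here as called, and leaving out the E16 forelimb pair left 338 and 447.

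Transcription factors that were rare in the proximal phalanx, among them Sim2, Pax9 and Foxd1, had some of the 12 highest fold changes. Where 4 values are given, they stand in the order E16 forelimb, E16 hindlimb, E17 forelimb and E17 hindlimb. Sim2, a bHLH-PAS transcription factor, had 27.5, 19.2, 15.2 and 9.58 CPM in the middle phalanges, against 3.82, 1.18, 1.73 and 0.565 CPM in the proximal phalanges. Every middle library lay above every proximal one, and the difference was a log2 fold change of 3.47 ± 0.21 (adjusted p = 3.27e-06), with a ratio of the means of 9.80. Pax9, a paired-box factor of limb and skeletal patterning, had 18.3, 15.2, 10.9 and 15.1 CPM in the middle phalanges, against 2.33, 1.89, 3.96 and 4.38 CPM in the proximal phalanges. The groups did not overlap, and the fold change was 2.29 ± 0.25 (adjusted p = 0.000158). Foxd1, a forkhead factor, averaged 9.38 ± 6.08 CPM in middle and 1.89 ± 0.788 CPM in proximal phalanges (SD, n = 4 each), and Adcyap1, which encodes the neuropeptide PACAP, averaged 5.40 ± 1.88 CPM in middle and 0.712 ± 0.315 CPM in proximal phalanges. Their fold changes were 2.18 ± 0.19 (adjusted p = 3.16e-05) and 2.97 ± 0.24 (adjusted p = 2.11e-05). Adamts16, a secreted metalloprotease, rose by 2.13 ± 0.15, Pcsk2, a prohormone convertase, by 1.97 ± 0.19 and Cubn, the endocytic receptor cubilin, by 2.47 ± 0.31 on the log2 scale (adjusted p = 8.7e-06, 7.78e-05 and 0.000377). The other 5 of the 12 highest fold changes, Krt84, Krt36, Sall1, Flg and Dlx2, are described with their groups.

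Among the 12 lowest fold changes were those of Calb1, Pi16, Cntn1, Sst, Nefm, Slitrk1, Corin, Mfap5 and Ebf2. Cntn1, an adhesion protein of axons, had 3.07, 2.19, 1.41 and 2.49 CPM in the middle phalanges, against 28.4, 23.0, 15.8 and 19.6 CPM in the proximal phalanges. Each middle library held less than the lowest proximal one, and the fold change was -3.26 ± 0.13 (adjusted p = 1.71e-07). Calb1, the calcium-binding protein calbindin, averaged 0.692 ± 0.237 CPM in middle and 10.5 ± 3.29 CPM in proximal phalanges, a fold change of -3.90 ± 0.30 (adjusted p = 1.42e-05). Sst, the neuropeptide somatostatin, had a fold change of -2.72 ± 0.36 (adjusted p = 0.000577), Nefm, a neurofilament subunit, of -2.51 ± 0.28 (adjusted p = 0.000208) and Slitrk1, a neuronal membrane protein, of -2.39 ± 0.39 (adjusted p = 0.00218). Pi16, a secreted protein made in fibroblasts, had 1.11, 0.397, 1.38 and 1.01 CPM in the middle phalanges, against 9.45, 3.83, 24.1 and 11.2 CPM in the proximal phalanges. Its groups did not overlap either, with a log2 fold change of -3.51 ± 0.20 (adjusted p = 2.55e-06). Ebf2, a transcription factor of mesenchymal cells, averaged 8.04 ± 1.36 CPM in middle and 38.2 ± 9.12 CPM in proximal phalanges, a fold change of -2.24 ± 0.12 (adjusted p = 1.81e-06). Mfap5, a protein of elastic microfibrils, and Corin, a membrane-bound protease, had fold changes of -2.24 ± 0.16 and -2.68 ± 0.25 (adjusted p = 7.34e-06 and 5.05e-05). In the fit over all 20 libraries Sst did not pass (adjusted p = 0.116), and within E17 alone Slitrk1 had an adjusted p of 0.0554.

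**Figure D1:**
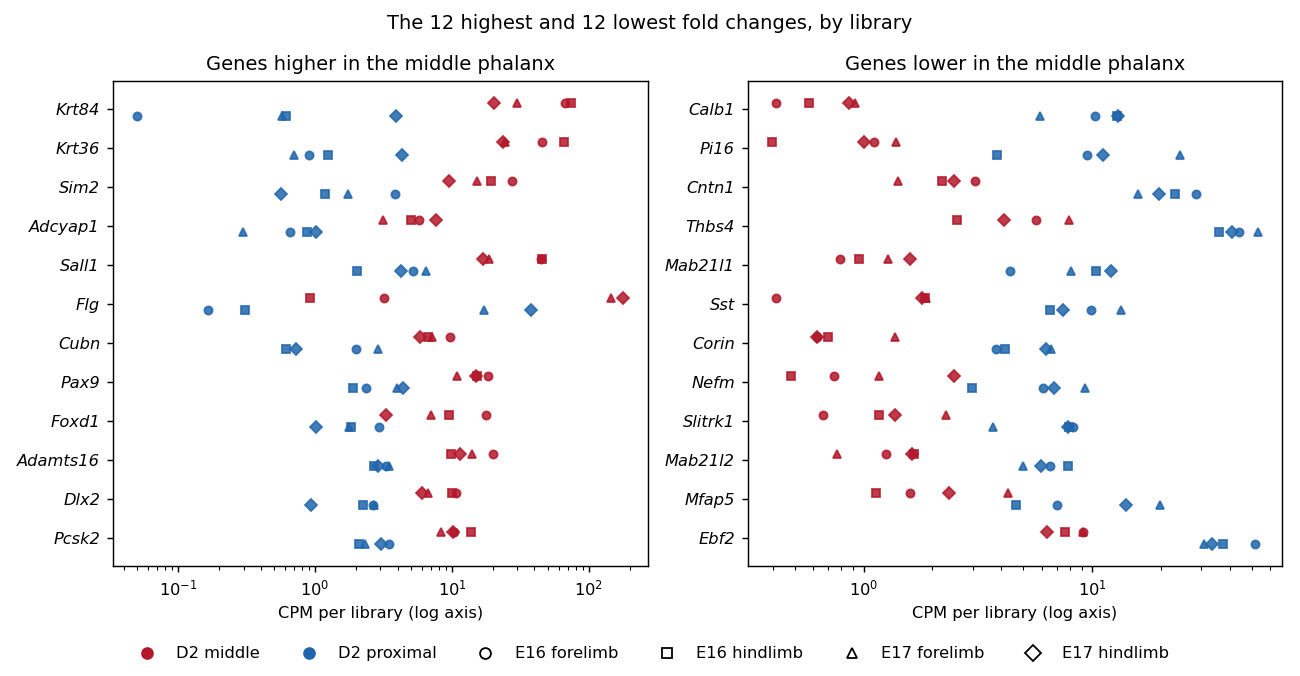
CPM of each library on a log axis for the 12 genes with the highest and the 12 with the lowest log2 fold changes, middle libraries in red above proximal libraries in blue, with the point shape giving stage and limb; a value of 0 is drawn at the left edge. Flg, whose middle libraries reach from 0.92 to 178 CPM, is the gene of the 24 in which the groups overlap, and its proximal libraries reach from 0.16 to 37.8 CPM.

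The genes of the HoxD cluster were lower in the middle phalanx, from Evx2 at the 5′ end to Hoxd9. Hoxd13, the HoxD gene mutated in human synpolydactyly, had 224, 207, 127 and 108 CPM in the middle phalanges, against 377, 369, 187 and 203 CPM in the proximal phalanges. In each pair the middle library was the lower one, although the E16 middle libraries were above the E17 proximal libraries, so the groups overlap across stages. The fold change was -0.77 ± 0.06 (adjusted p = 2.41e-05). Evx2, a homeobox gene next to Hoxd13, had 20.9, 14.5, 14.7 and 10.00 CPM in the middle phalanges, against 38.3, 36.5, 26.6 and 27.0 CPM in the proximal phalanges. Its groups did not overlap, and the fold change of -1.12 ± 0.11 (adjusted p = 8.17e-05) was the lowest of the tested homeobox genes of the cluster. Gm31790, a predicted gene that lies between Evx2 and Hoxd13 and was picked after its value was seen, had -1.33 ± 0.23 (adjusted p = 0.00352), at means of 1.43 CPM in middle and 3.60 CPM in proximal phalanges. Hoxd10 averaged 16.02 ± 6.26 CPM in middle and 29.5 ± 8.87 CPM in proximal phalanges and Hoxd9 averaged 4.76 ± 0.739 CPM in middle and 8.68 ± 0.752 CPM in proximal phalanges, with fold changes of -0.91 ± 0.10 (adjusted p = 0.000151) and -0.88 ± 0.14 (adjusted p = 0.00205). Hoxd12 and Hoxd11 had fold changes of -0.59 ± 0.07 (adjusted p = 0.000231) and -0.55 ± 0.09 (adjusted p = 0.00206). Hoxd8 had -0.47 ± 0.14 (adjusted p = 0.0703) and did not pass. Of the 10 listed members of the cluster 7 were tested and 6 were lower, against 4.91% of all genes, with a median of -0.77 against 0.01. The 6 calls were also made in each fit that left out 1 pair. Over all 20 libraries, Hoxd9, Hoxd11 and Hoxd12 did not pass (adjusted p = 0.148 to 0.471).

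The neighbours of the cluster were looked up in the gene order of the RefSeq annotation of GRCm38.p6, and these genes were chosen after their values were seen. Lnpk, which encodes the endoplasmic reticulum protein lunapark and is the nearest protein-coding gene beyond Evx2, averaged 39.0 ± 9.65 CPM in middle and 59.7 ± 19.7 CPM in proximal phalanges. It was lower in each pair, with a log2 fold change of -0.59 ± 0.08 (adjusted p = 0.000806). Farther out on that side, Atf2 had a fold change of -0.07 ± 0.07 (adjusted p = 0.658). Mtx2, the gene beyond the other end of the cluster, had 0.02 ± 0.07 (adjusted p = 0.898). Atf2 and Mtx2 did not pass.

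In the HoxA cluster 4 genes were higher and none was lower in the middle phalanx. Hoxa13, whose mutation causes hand-foot-genital syndrome in people, had 35.5, 44.7, 17.003 and 21.2 CPM in the middle phalanges, against 22.1, 21.7, 13.4 and 12.7 CPM in the proximal phalanges. The middle library was higher in each pair, and the fold change was 0.71 ± 0.11 (adjusted p = 0.00157). Hoxa10 had 62.3, 87.1, 40.7 and 51.6 CPM in the middle phalanges, against 41.0, 55.6, 28.6 and 34.8 CPM in the proximal phalanges, again higher in each pair, with a log2 fold change of 0.58 ± 0.06 (adjusted p = 0.000152). Hoxa11 and Hoxa9 passed more narrowly, at 0.44 ± 0.11 (adjusted p = 0.0292) and 0.39 ± 0.10 (adjusted p = 0.0322). Hoxa7, Hoxa6, Hoxa5 and Hoxa3 had fold changes of -0.09, 0.32, 0.35 and -0.15 and did not pass. Of 8 tested HoxA members 4 were higher, against 4.27% of all genes, with a median of 0.37. Hottip, a long non-coding RNA that starts next to Hoxa13 and was chosen after its values were seen, had 6.17, 9.54, 4.40 and 3.96 CPM in the middle phalanges, against 2.17, 2.98, 0.564 and 1.44 CPM in the proximal phalanges, and a log2 fold change of 1.86 ± 0.26 (adjusted p = 0.000804). The kit is not marked as strand-specific. Transcripts that overlap on opposite strands, such as those of Hoxa11 and its antisense gene, may therefore not have been told apart. Calls not made in each fit of 3 pairs were those of Hoxa9 without the E16 forelimb, E16 hindlimb or E17 hindlimb pair (adjusted p = 0.123 to 0.145) and Hoxa11 without the E16 forelimb, E16 hindlimb or E17 hindlimb pair (adjusted p = 0.102 to 0.136). Over all 20 libraries, Hoxa9 and Hoxa11 did not pass (adjusted p = 0.0924 to 0.193), and within E17 alone Hoxa13 had an adjusted p of 0.0779.

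In the HoxC cluster 3 of 7 tested genes were higher, against 4.27% of all genes, and they were those at the 5′ end. Hoxc13, which acts in nail and hair, had 26.6, 23.7, 14.1 and 14.4 CPM in the middle phalanges, against 9.43, 6.37, 8.76 and 5.24 CPM in the proximal phalanges, without overlap and with a log2 fold change of 1.38 ± 0.17 (adjusted p = 0.00032). Hoxc12 averaged 11.2 ± 1.09 CPM in middle and 6.09 ± 1.34 CPM in proximal phalanges, a fold change of 0.89 ± 0.14 (adjusted p = 0.00174). Hoxc11 had 0.60 ± 0.17 (adjusted p = 0.0488), and the call was lost whichever pair was left out (adjusted p = 0.0836 to 0.178). Hoxc10, Hoxc9, Hoxc6 and Hoxc4 had fold changes of 0.19, 0.23, -0.52 and -0.73 and did not pass. The 4 tested HoxB genes, Hoxb9, Hoxb8, Hoxb7 and Hoxb3, had fold changes of 0.16, -0.35, -0.21 and 0.09 at mean levels of at most 4.58 CPM, and none passed in edgeR, 0 had an unadjusted p under 0.05 and DESeq2 called 0.

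**Figure D2:**
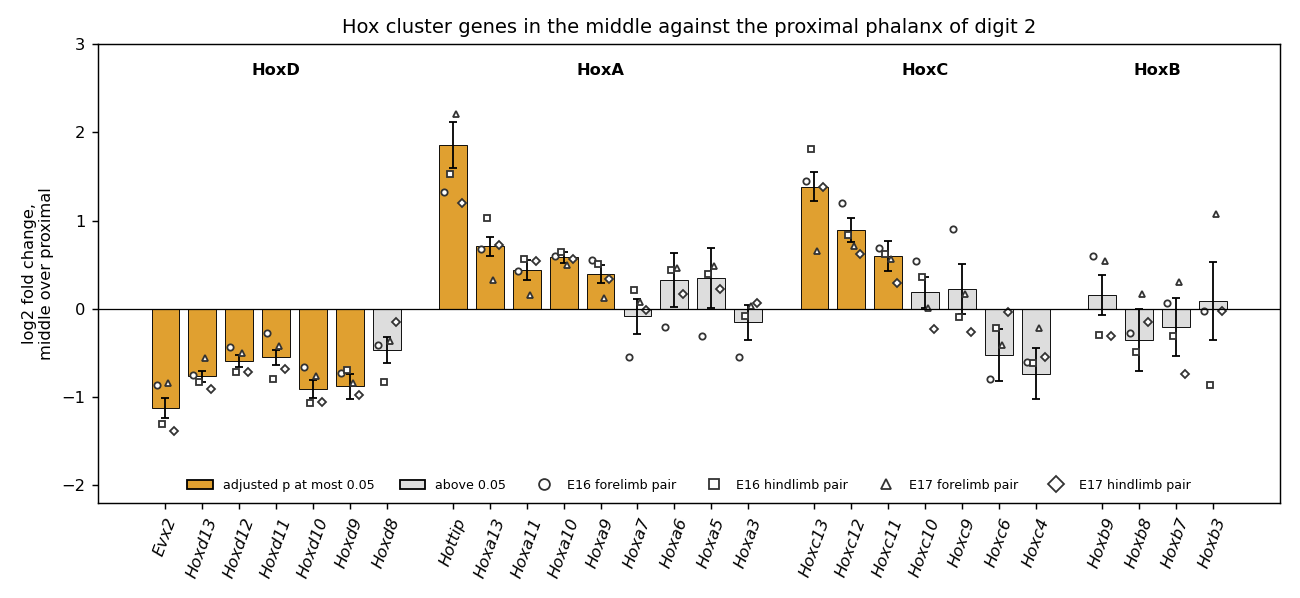
Log2 fold change of the middle over the proximal phalanx for the tested Hox genes with Evx2 and Hottip, in cluster order from the 5′ end; error bars are standard errors, open symbols are the 4 matched pairs, and filled bars mark adjusted p of at most 0.05. HoxD bars are below 0 and reach -1.12 at Evx2, while Hoxa13, Hoxa10 and Hoxc13 stand at 0.71, 0.58 and 1.38.

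The 4 promoter windows shown next belong to adjoining genes at the 5′ ends of both clusters, Evx2 and Hoxd13 of HoxD and Hoxa13 and Hottip of HoxA, and are shown because the fold changes of the 2 clusters were opposite in sign. Evx1, which lies beyond Hottip, was not tested. Each is the 250 bases before the transcription start in RefSeq, written 5′ to 3′ on the gene's strand, build GRCm38.p6: chr2:74659558-74659807 on the minus strand for Evx2, chr2:74667975-74668224 on the plus strand for Hoxd13, chr6:52260881-52261130 on the minus strand for Hoxa13 and chr6:52262525-52262774 on the plus strand for Hottip. Capitals mark CAATAAA, a sequence that posterior Hox proteins bind, searched on both strands as CAATAAA and TTTATTG.
Evx2: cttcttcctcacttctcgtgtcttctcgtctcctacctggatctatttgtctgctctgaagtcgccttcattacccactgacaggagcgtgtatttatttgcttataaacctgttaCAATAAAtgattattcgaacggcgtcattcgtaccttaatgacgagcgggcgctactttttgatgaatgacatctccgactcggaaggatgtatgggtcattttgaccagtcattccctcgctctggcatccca
Hoxd13: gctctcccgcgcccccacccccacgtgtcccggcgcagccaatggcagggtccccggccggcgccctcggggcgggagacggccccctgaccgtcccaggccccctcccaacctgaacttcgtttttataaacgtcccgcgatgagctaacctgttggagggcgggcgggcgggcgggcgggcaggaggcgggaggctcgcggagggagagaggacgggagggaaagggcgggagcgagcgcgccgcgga
Hoxa13: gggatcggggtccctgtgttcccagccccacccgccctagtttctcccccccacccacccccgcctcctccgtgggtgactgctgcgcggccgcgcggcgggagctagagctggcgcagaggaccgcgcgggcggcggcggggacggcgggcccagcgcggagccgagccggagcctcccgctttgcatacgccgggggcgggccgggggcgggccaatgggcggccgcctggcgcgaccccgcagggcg
Hottip: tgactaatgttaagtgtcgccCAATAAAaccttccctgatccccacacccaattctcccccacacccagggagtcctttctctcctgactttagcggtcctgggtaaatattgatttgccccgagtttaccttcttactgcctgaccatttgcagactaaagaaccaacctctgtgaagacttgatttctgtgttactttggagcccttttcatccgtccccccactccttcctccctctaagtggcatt
The windows of Evx2 and Hottip held 1 match each and those of Hoxd13 and Hoxa13 none, where 4.2% of 32851 promoter windows of this length held it. The GC content was 45.6% for Evx2, 74.4% for Hoxd13, 80.0% for Hoxa13 and 48.4% for Hottip, against a median of 52.4% over those windows.

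In a list of distal digit factors 12 of 20 tested members were higher in the middle phalanx. Lhx9, a LIM homeobox factor of the distal limb mesenchyme, had 52.8, 56.1, 26.9 and 21.9 CPM in the middle phalanges, against 19.5, 14.01, 10.4 and 8.67 CPM in the proximal phalanges. The groups did not overlap and the fold change was 1.54 ± 0.11 (adjusted p = 9.94e-06). Wnt5a, a Wnt ligand that drives outgrowth of the digit, had 579, 631, 358 and 325 CPM in the middle phalanges, against 288, 259.5, 197 and 179.8 CPM in the proximal phalanges, also without overlap and with a log2 fold change of 1.00 ± 0.07 (adjusted p = 9.94e-06). Msx1 and Msx2, homeobox factors of the digit tip, averaged 76.0 ± 30.7 and 26.4 ± 7.65 CPM in middle phalanges, against 39.9 ± 16.9 and 12.0 ± 2.98 CPM in proximal phalanges. Their fold changes were 0.94 ± 0.06 (adjusted p = 4.42e-06) and 1.13 ± 0.09 (adjusted p = 2.35e-05). Tfap2b, an AP-2 factor mutated in Char syndrome, in which middle phalanges can be short, had 281, 317, 179.8 and 188 CPM in the middle phalanges, against 96.0, 96.0, 81.4 and 80.9 CPM in the proximal phalanges. It was higher in every middle library, by 1.41 ± 0.09 on the log2 scale (adjusted p = 3.7e-06).

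Of the 22 listed distal digit factors 20 were tested, and beside the 12 higher ones 1 was lower, against 4.27% and 4.91% of all genes, with a median of 0.77. Sall1, a zinc finger factor, and Dlx2 and Dlx1, homeobox factors of a linked pair, had fold changes of 2.73 ± 0.37 (adjusted p = 0.00068), 2.02 ± 0.22 (adjusted p = 0.000151) and 1.65 ± 0.19 (adjusted p = 0.000224). Sp8, Sp9 and En1, factors of the limb ectoderm, had 0.80 ± 0.09 (adjusted p = 0.000166), 0.78 ± 0.10 (adjusted p = 0.000599) and 0.61 ± 0.09 (adjusted p = 0.000921), and Dlx3 had 0.45 ± 0.08 (adjusted p = 0.00478). Dlx5 was the lower member, at -0.32 ± 0.08 (adjusted p = 0.0355). Dlx4 (0.75), Lhx2 (0.16), Lmx1b (0.14), Sall2 (0.05), Bambi (-0.17), Sp6 (-0.19) and Dlx6 (-1.01) did not pass. The 12 higher calls were kept on leaving out each pair. The calls that ended were those of Dlx5 without the E16 forelimb, E16 hindlimb or E17 hindlimb pair (adjusted p = 0.0825 to 0.147), and in the fit over all 20 libraries Dlx3, Dlx5, En1 and Sp9 did not pass (adjusted p = 0.0502 to 0.212).

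Factors of the proximal limb did not share a direction. Meis1, a homeobox factor that marks the upper limb segment in the early bud, was higher in the middle phalanx, at 21.4, 25.3, 26.0 and 27.3 CPM in the middle phalanges, against 9.93, 11.4, 9.79 and 10.6 CPM in the proximal phalanges. The groups did not overlap, with a log2 fold change of 1.26 ± 0.10 (adjusted p = 1.65e-05). Zfhx3, a large zinc finger homeobox factor, was lower, at 69.0, 60.6, 22.1 and 26.4 CPM in the middle phalanges, against 127, 96.5, 49.3 and 52.4 CPM in the proximal phalanges, with a log2 fold change of -0.92 ± 0.08 (adjusted p = 2.91e-05). Emx2, a homeobox factor of the girdles, had 0.53 ± 0.11 (adjusted p = 0.00743) and Shox2, a factor of the upper limb skeleton, -0.49 ± 0.12 (adjusted p = 0.0297). Meis2 (0.22), Pbx3 (0.06), Pbx2 (-0.0023), Meis3 (-0.01) and Zfhx4 (-0.18) did not pass. With 1 pair left out, the calls lost were those of Emx2 without the E16 forelimb pair (adjusted p = 0.0657) and Shox2 without the E16 forelimb or E16 hindlimb pair (adjusted p = 0.0823 to 0.146). Neither passed over all 20 libraries (adjusted p = 0.258 to 0.343).

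Among the Iroquois factors, homeobox genes that pattern digits, Irx1 and Irx3 were lower. Irx1 averaged 39.5 ± 9.19 CPM in middle and 59.8 ± 9.29 CPM in proximal phalanges and Irx3 averaged 64.1 ± 10.4 CPM in middle and 90.3 ± 11.5 CPM in proximal phalanges. Both groups were separate for each gene, with fold changes of -0.62 ± 0.09 (adjusted p = 0.00103) and -0.50 ± 0.09 (adjusted p = 0.00352). The other 4 members did not pass, so 2 of 6 were lower, against 4.91% of all genes. In the T-box list Tbx1 and Tbx3 had fold changes of 0.84 ± 0.11 (adjusted p = 0.000682) and 0.48 ± 0.08 (adjusted p = 0.0018), and Tbx15 had -0.38 ± 0.07 (adjusted p = 0.00649). Tbx4, a T-box factor of the hindlimb, had 0.21 ± 0.09 (adjusted p = 0.193) and did not pass. With the other 12 libraries in the fit, Irx1, Irx3, Tbx3 and Tbx15 did not pass (adjusted p = 0.137 to 0.328).

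In a list of genes of the anterior to posterior axis of the limb, members were called in both directions. Hand2, a bHLH factor that acts upstream of Sonic hedgehog at the posterior margin, had 17.3, 16.3, 20.9 and 18.9 CPM in the middle phalanges, against 55.7, 63.4, 50.9 and 51.9 CPM in the proximal phalanges. The middle libraries all lay below the proximal ones, at a log2 fold change of -1.59 ± 0.10 (adjusted p = 4.03e-06). Mab21l1 and Mab21l2, related genes of embryonic patterning, had fold changes of -2.87 ± 0.21 and -2.28 ± 0.21 (adjusted p = 8.7e-06 and 4.68e-05). Pax1, a paired-box factor close to Pax9, averaged 2.08 ± 0.956 CPM in middle and 9.37 ± 6.05 CPM in proximal phalanges, a fold change of -2.06 ± 0.27 (adjusted p = 0.000535). Pax1 and Pax9 thus had fold changes of opposite sign. Cntfr, the receptor of ciliary neurotrophic factor, had -1.54 ± 0.13 (adjusted p = 2.41e-05). On the other side, Epha7, an ephrin receptor, had 177, 162, 114 and 101 CPM in the middle phalanges, against 69.6, 67.2, 43.5 and 38.7 CPM in the proximal phalanges. Its groups did not overlap and its fold change was 1.35 ± 0.05 (adjusted p = 1.71e-07). Gli3, a Hedgehog pathway repressor, had 0.38 ± 0.08 (adjusted p = 0.0124). Of 16 tested members 5 were higher and 6 lower, against 4.27% and 4.91% of all genes, with a median of 0.05. Sim1, a relative of Sim2 outside the list and chosen after its values were seen, went against Sim2, at a mean of 4.26 CPM in middle and 9.46 CPM in proximal phalanges and a fold change of -1.18 ± 0.18 (adjusted p = 0.00147). The calls that ended on omission of a pair were those of Gli3 without the E16 forelimb pair (adjusted p = 0.0675) and Hand1 without the E16 forelimb or E17 forelimb pair (adjusted p = 0.0545 to 0.102), the last at -0.69 in the main comparison. With the other 12 libraries in the fit, Sim1, Gli3 and Hand1 did not pass (adjusted p = 0.253 to 0.442).

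In the list of joint and articular genes, Gdf5 was higher, and Prg4, Thbs4 and Wnt9a were lower in the middle phalanx. Gdf5, the BMP family signal that marks joint interzones and is mutated in human brachydactyly, had 69.9, 130.3, 37.9 and 47.6 CPM in the middle phalanges, against 30.2, 48.9, 25.4 and 26.7 CPM in the proximal phalanges. The middle library was higher in each pair, although the E17 middle libraries fell within the range of the proximal ones, and the fold change was 1.01 ± 0.12 (adjusted p = 0.000223). Bmpr1b, the receptor of Gdf5, was lower, at 22.6, 26.6, 19.3 and 17.6 CPM in the middle phalanges, against 37.0, 40.2, 27.6 and 28.0 CPM in the proximal phalanges. Its groups did not overlap, with a log2 fold change of -0.62 ± 0.08 (adjusted p = 0.000317). Prg4, the lubricin of joint surfaces and tendon sheaths, had 0.609, 0.274, 0.470 and 0.275 CPM in the middle phalanges, against 7.84, 2.63, 7.14 and 2.21 CPM in the proximal phalanges. These are low levels that do not overlap, and the fold change was -3.50 ± 0.27 (adjusted p = 1.52e-05). Thbs4, a thrombospondin of tendon and ligament, had 5.69, 2.55, 7.94 and 4.12 CPM in the middle phalanges, against 43.7, 35.8, 53.1 and 40.6 CPM in the proximal phalanges, without overlap, a fold change of -3.18 ± 0.15 (adjusted p = 6.58e-07). Wnt9a, a Wnt ligand of forming joints, averaged 13.3 ± 2.096 CPM in middle and 22.0 ± 2.92 CPM in proximal phalanges, at -0.73 ± 0.09 (adjusted p = 0.000373).

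Of 22 tested joint and articular genes 5 were higher and 6 lower, against 4.27% and 4.91% of all genes, with a median of 0.10. Sfrp2, a secreted Wnt modulator, rose by 0.56 ± 0.08 on the log2 scale (adjusted p = 0.000678), and Erg, a factor of articular chondrocytes, fell by 0.39 ± 0.07 (adjusted p = 0.00417). Dcx and Creb5, known in articular cells, had 0.62 ± 0.14 (adjusted p = 0.0154) and 0.44 ± 0.12 (adjusted p = 0.0397), and Tgfbr2, a TGF-beta receptor, had 0.21 ± 0.06 (adjusted p = 0.0444). Wnt16 and Enpp1, an enzyme that makes the mineralisation inhibitor pyrophosphate, had -0.97 ± 0.22 (adjusted p = 0.0169) and -0.59 ± 0.12 (adjusted p = 0.008). Osr1 (0.28), Vit (0.22), Gdf6 (0.19), Sulf1 (0.17), Wnt4 (0.15), Barx2 (0.11), Enpp2 (0.09), Cd44 (0.08), Osr2 (-0.15), Nfatc1 (-0.22) and Barx1 (-0.44) did not pass. Omitting a pair ended the calls of Dcx without the E16 forelimb or E16 hindlimb pair (adjusted p = 0.0739 to 0.0916), Creb5 without the E16 forelimb, E16 hindlimb or E17 hindlimb pair (adjusted p = 0.092 to 0.134), Tgfbr2 whichever pair was left out (adjusted p = 0.0742 to 0.158), Wnt16 without the E16 forelimb pair (adjusted p = 0.0878) and Enpp1 without the E16 forelimb pair (adjusted p = 0.0715). When all 20 libraries were fitted, Gdf5, Bmpr1b, Sfrp2, Erg, Dcx, Creb5, Tgfbr2, Wnt16 and Enpp1 did not pass (adjusted p = 0.0537 to 0.573).

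Among 20 tested genes of phalanx formation and inherited short digits, 6 were higher and 3 lower, against 4.27% and 4.91% of all genes, with a median of 0.05. Besides Gdf5, Wnt5a, Hoxa13, Bmpr1b and Hoxd13, already given, Trps1, the factor of tricho-rhino-phalangeal syndrome, had 0.44 ± 0.08 (adjusted p = 0.00591) and Fgfr2 0.31 ± 0.06 (adjusted p = 0.00709). Sox9, the factor that starts cartilage formation, had 0.40 ± 0.09 (adjusted p = 0.013), and Rspo2, a Wnt enhancer of limb outgrowth, had -0.92 ± 0.24 (adjusted p = 0.0341). Nog, a BMP antagonist of joint formation, had -0.33, Pthlh 0.46, Ror2, a Wnt5a receptor, 0.05, and Bmp2, Npr2, Chsy1, Fgfr1, Fgf9, Prmt7 and Pth1r lay between -0.05 and 0.21, none of them past the test. Ihh, the Hedgehog signal of growing cartilage, was below the level filter. Calls lost without a pair were those of Sox9 without the E16 forelimb or E16 hindlimb pair (adjusted p = 0.0647 to 0.102) and Rspo2 without the E16 forelimb, E16 hindlimb or E17 hindlimb pair (adjusted p = 0.0856 to 0.134). Over all 20 libraries, Trps1, Sox9 and Rspo2 did not pass (adjusted p = 0.116 to 0.286).

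Small leucine-rich proteoglycans, which coat collagen fibrils, were lower in the middle phalanx where they passed. Kera, keratocan, a small proteoglycan of tendon and cornea, had 31.8, 28.1, 72.5 and 57.8 CPM in the middle phalanges, against 238, 142, 256 and 216 CPM in the proximal phalanges. Every middle library lay below every proximal one, with a log2 fold change of -2.23 ± 0.14 (adjusted p = 4.18e-06). Lum and Dcn, lumican and decorin, which space collagen fibrils, averaged 319.9 ± 89.7 and 378 ± 148 CPM in middle phalanges, against 617 ± 51.2 and 678 ± 146 CPM in proximal phalanges. Their fold changes were -0.99 ± 0.11 (adjusted p = 0.00017) and -0.91 ± 0.09 (adjusted p = 9.15e-05). Epyc, Prelp and Aspn, further members of this family, had -2.50 ± 0.31 (adjusted p = 0.000354), -1.48 ± 0.20 (adjusted p = 0.000711) and -1.04 ± 0.09 (adjusted p = 2.23e-05), and Ogn -0.46 ± 0.08 (adjusted p = 0.0026). Of 12 tested small leucine-rich proteoglycans 8 were lower and 0 higher, against 4.91% and 4.27% of all genes, with a median of -0.68, and 7 of the 8 were called in each fit that left out 1 pair. Ogn did not pass over all 20 libraries (adjusted p = 0.251).

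Tnmd, a membrane protein of mature tendon cells, had 44.3, 40.5, 79.4 and 78.5 CPM in the middle phalanges, against 88.1, 55.7, 155 and 96.2 CPM in the proximal phalanges, lower in each pair, with a log2 fold change of -0.68 ± 0.11 (adjusted p = 0.00191). Tnxb, a matrix protein of elastic connective tissue, had -1.82 ± 0.22 (adjusted p = 0.000363). Scx and Mkx, transcription factors of tendon cells, had -0.49 ± 0.14 (adjusted p = 0.0521) and 0.02 ± 0.12 (adjusted p = 0.951) and did not pass. Of 14 tested tendon genes 4 were lower and 1 higher, against 4.91% and 4.27% of all genes. The higher one was Egr2, a zinc finger factor, at 0.75 ± 0.17 (adjusted p = 0.0191). The fibrous matrix list had 8 lower and 4 higher of 18 members, against 4.91% and 4.27% of all genes. Eln, elastin, averaged 424 ± 97.6 CPM in middle and 650.0 ± 164 CPM in proximal phalanges, a fold change of -0.61 ± 0.06 (adjusted p = 9.32e-05). Col5a3 and Col6a1, collagen chains, had -1.29 ± 0.11 (adjusted p = 2.15e-05) and -0.36 ± 0.05 (adjusted p = 0.00145). Tnc, tenascin C, averaged 206 ± 33.3 CPM in middle and 135 ± 18.0 CPM in proximal phalanges, at 0.61 ± 0.10 (adjusted p = 0.00192), and Col14a1 and Col12a1, collagens on fibril surfaces, were at 0.44 ± 0.08 (adjusted p = 0.00674) and 0.38 ± 0.08 (adjusted p = 0.0111). Col3a1, the collagen III chain, had -0.22 ± 0.06 (adjusted p = 0.049). Left-out pairs ended the calls of Egr2 without the E17 forelimb or E17 hindlimb pair (adjusted p = 0.0884 to 0.104), Col14a1 without the E16 forelimb pair (adjusted p = 0.0631), Col12a1 without the E16 forelimb or E17 hindlimb pair (adjusted p = 0.0745 to 0.0835) and Col3a1 without the E16 forelimb, E17 forelimb or E17 hindlimb pair (adjusted p = 0.0531 to 0.362). In the fit over all 20 libraries Tnmd, Tnxb, Egr2, Col14a1, Col12a1 and Col3a1 did not pass (adjusted p = 0.0604 to 0.193).

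In the cartilage lists Comp and Col11a1 were lower, Matn4 was higher, and Col2a1 did not pass. Col2a1, the chief collagen of cartilage, had 589.6, 644, 159.6 and 154 CPM in the middle phalanges, against 370.4, 903, 178 and 213 CPM in the proximal phalanges, which overlap, at -0.11 ± 0.15 (adjusted p = 0.741). Acan, aggrecan, had 0.10 ± 0.16 (adjusted p = 0.796). Comp, a pentameric matrix protein of cartilage and tendon, averaged 5.30 ± 3.27 CPM in middle and 14.6 ± 6.53 CPM in proximal phalanges, a fold change of -1.58 ± 0.21 (adjusted p = 0.000599), and Col11a1 had -0.43 ± 0.08 (adjusted p = 0.00571). Matn4, a matrilin, was higher, at 195, 196, 144 and 142 CPM in the middle phalanges, against 83.4, 139, 60.7 and 69.4 CPM in the proximal phalanges. Its groups did not overlap, with a log2 fold change of 1.00 ± 0.10 (adjusted p = 0.000123). Of 18 tested cartilage matrix genes 5 were lower and 1 higher, against 4.91% and 4.27% of all genes, with a median of -0.17. Col9a2 and Matn1, at -0.93 ± 0.23 (adjusted p = 0.028) and -1.59 ± 0.40 (adjusted p = 0.0302), were lower in 3 of 4 pairs. In the list of chondrocyte regulators, 4 of 13 were higher, against 4.27% of all genes. Among them were Zbtb20 at 0.78 ± 0.12 (adjusted p = 0.00132) and Foxc1 at 0.67 ± 0.10 (adjusted p = 0.00135). With 1 pair left out, the calls lost were those of Col9a2 without the E16 hindlimb, E17 forelimb or E17 hindlimb pair (adjusted p = 0.0801 to 0.114) and Matn1 without the E16 hindlimb, E17 forelimb or E17 hindlimb pair (adjusted p = 0.0703 to 0.133). The larger fit of 20 libraries lost calls too: Foxc1 and Matn1 did not pass (adjusted p = 0.0731 to 0.379).

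Panx3, a channel protein of prehypertrophic chondrocytes and osteoblasts, averaged 0.786 ± 0.173 CPM in middle and 3.10 ± 1.22 CPM in proximal phalanges, a fold change of -1.92 ± 0.28 (adjusted p = 0.00101). Alpl, the alkaline phosphatase of mineralising tissue, had 14.9, 7.39, 15.8 and 6.55 CPM in the middle phalanges, against 25.6, 22.3, 32.5 and 27.3 CPM in the proximal phalanges, without overlap, at -1.36 ± 0.18 (adjusted p = 0.000508). Bglap3, an osteocalcin-related gene whose close copies leave its counts uncertain, had -1.30 ± 0.24 (adjusted p = 0.00575), and Phex, an enzyme of mineralising bone cells, -0.79 ± 0.17 (adjusted p = 0.0128). Runx2 and Sp7, the transcription factors of osteoblasts, had -0.32 ± 0.11 (adjusted p = 0.107) and -0.66 ± 0.21 (adjusted p = 0.0867), and Col10a1, of hypertrophic cartilage, had 0.47 ± 0.32 (adjusted p = 0.472), none of which passed. Mef2c, a factor of chondrocyte hypertrophy, had 0.45 ± 0.08 (adjusted p = 0.00572). Ctsk and Acp5, enzymes of osteoclasts, averaged 50.05 ± 16.5 and 17.9 ± 5.22 CPM in middle phalanges, against 73.0 ± 17.3 and 25.8 ± 9.08 CPM in proximal phalanges, and had -0.57 ± 0.07 (adjusted p = 0.00029) and -0.50 ± 0.10 (adjusted p = 0.0105). The 10 osteoclast markers together took 59 to 108 CPM in middle and 90.5 to 158 CPM in proximal libraries and were lower in 4 of 4 pairs. Ctsk and Acp5 made up most of this sum, so it is no separate support. Of 5 tested osteoclast markers these 2 were lower, against 4.91% of all genes, and the rest did not pass. The calls that ended on omission of a pair were those of Phex without the E16 forelimb or E17 hindlimb pair (adjusted p = 0.0639 to 0.0814), Mef2c without the E16 forelimb pair (adjusted p = 0.0555) and Acp5 without the E17 forelimb or E17 hindlimb pair (adjusted p = 0.0526 to 0.0567). None of these 3 passed over all 20 libraries (adjusted p = 0.16 to 0.372).

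Of the Wnt inhibitors and response genes, Wif1, Sfrp1 and Nkd2 were higher and Sfrp5 was lower in the middle phalanx. Wif1, a secreted Wnt inhibitor, had 139, 131, 121 and 100.1 CPM in the middle phalanges, against 63.1, 52.9, 57.8 and 46.9 CPM in the proximal phalanges. The groups did not overlap, and the fold change was 1.15 ± 0.06 (adjusted p = 1.59e-06). Sfrp1, another Wnt-binding inhibitor, had 104, 125, 59.3 and 54.2 CPM in the middle phalanges, against 33.9, 27.5, 25.6 and 19.8 CPM in the proximal phalanges, again without overlap, with a log2 fold change of 1.62 ± 0.13 (adjusted p = 1.58e-05). Nkd2, an intracellular Wnt antagonist, had 0.76 ± 0.07 (adjusted p = 2.98e-05), Dkk2, a secreted modulator of Wnt receptors, 0.53 ± 0.06 (adjusted p = 0.000261), and Dkk4 1.68 ± 0.30 (adjusted p = 0.00439). Sfrp5, of the same family as Sfrp1, went the other way, at 7.06, 5.60, 11.3 and 12.4 CPM in the middle phalanges, against 21.3, 16.1, 30.4 and 35.0 CPM in the proximal phalanges, with a log2 fold change of -1.51 ± 0.09 (adjusted p = 3.39e-06). Axin2, a target of canonical Wnt signalling, had 0.18 ± 0.05 (adjusted p = 0.0704) and did not pass. Of 21 tested inhibitors and response genes 9 were higher and 3 lower, against 4.27% and 4.91% of all genes, with a median of 0.18. Lgr5, Dkk1 and Lgr6 passed at -0.83 ± 0.17 (adjusted p = 0.00914), -0.81 ± 0.18 (adjusted p = 0.0134) and 0.33 ± 0.07 (adjusted p = 0.00824), and left-out pairs ended the calls of Lgr5 without the E16 forelimb pair (adjusted p = 0.0828), Dkk1 without the E16 forelimb pair (adjusted p = 0.105) and Lgr6 without the E16 forelimb pair (adjusted p = 0.0502). In the fit of 20 libraries Dkk2 and Lgr6 did not pass (adjusted p = 0.206 to 0.404).

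Of 20 tested Wnt ligands and R-spondins 3 were higher and 7 lower, against 4.27% and 4.91% of all genes. Rspo4, the R-spondin whose loss leaves people without nails, averaged 2.92 ± 1.34 CPM in middle and 0.200 ± 0.189 CPM in proximal phalanges, a fold change of 4.10 ± 0.56 (adjusted p = 0.000748) at a low level. Wnt2 averaged 0.710 ± 0.162 CPM in middle and 4.39 ± 1.63 CPM in proximal phalanges, a fold change of -2.58 ± 0.30 (adjusted p = 0.000223). Wnt11 had -0.47 ± 0.08 (adjusted p = 0.00345) and Wnt6 0.36 ± 0.08 (adjusted p = 0.0123). The call of Wnt6 ended without the E16 forelimb or E17 forelimb pair (adjusted p = 0.0551 to 0.0746), and over all 20 libraries Wnt11 and Wnt6 did not pass (adjusted p = 0.088 to 0.251).

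Among BMP signals Bmp4 averaged 22.8 ± 3.14 CPM in middle and 14.02 ± 1.66 CPM in proximal phalanges, a fold change of 0.70 ± 0.09 (adjusted p = 0.000524), and the antagonist Sostdc1 averaged 65.1 ± 8.12 CPM in middle and 36.0 ± 3.19 CPM in proximal phalanges, a fold change of 0.85 ± 0.07 (adjusted p = 3.08e-05). Smoc2, a secreted matrix-associated protein, had 0.65 ± 0.09 (adjusted p = 0.000964). Gdf10, a BMP-related ligand, averaged 83.2 ± 28.8 CPM in middle and 142 ± 57.1 CPM in proximal phalanges, a fold change of -0.75 ± 0.06 (adjusted p = 1.13e-05), and the antagonists Fst and Chrd had -0.66 ± 0.11 (adjusted p = 0.00302) and -0.59 ± 0.13 (adjusted p = 0.0159). The BMP target genes Id1 and Id3 had 0.31 ± 0.06 (adjusted p = 0.00541) and 0.29 ± 0.06 (adjusted p = 0.0125). Of 14 tested BMP receptor and response genes 4 were higher and 1 lower, against 4.27% and 4.91% of all genes, with a median of 0.07. The higher ones were Id1, Id3, Msx1 and Msx2, and the lower one was Bmpr1b. Members that did not pass, among them the list's other Id genes, its Smad genes and Bambi, had fold changes from -0.17 to 0.27. Of 19 tested ligands and antagonists 6 were higher and 4 lower, against 4.27% and 4.91% of all genes. Omitting a pair ended the calls of Chrd without the E17 forelimb or E17 hindlimb pair (adjusted p = 0.0669 to 0.0684) and Id3 without the E16 forelimb pair (adjusted p = 0.0785). Over all 20 libraries, Bmp4, Smoc2, Fst, Id1 and Id3 did not pass (adjusted p = 0.0838 to 0.412).

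Of 14 tested genes of retinoic acid handling 6 were higher and 2 lower, against 4.27% and 4.91% of all genes. Cyp26b1, the enzyme that degrades retinoic acid in the limb, had 203, 186, 156 and 146 CPM in the middle phalanges, against 104, 107, 106 and 110.0 CPM in the proximal phalanges, without overlap, at a log2 fold change of 0.68 ± 0.08 (adjusted p = 0.000302). Rdh10, an enzyme of its synthesis, and Stra6, the receptor that takes up retinol, had 0.56 ± 0.06 (adjusted p = 0.000208) and 0.65 ± 0.10 (adjusted p = 0.0018). Aldh1a1, 1 of several enzymes of the last step of synthesis and the lowest of those tested, had 1.93 ± 0.35 (adjusted p = 0.00478). Its means were 1.28 CPM in middle and 0.349 CPM in proximal phalanges. Crabp1 and Crabp2, which bind retinoic acid inside cells, had -0.63 ± 0.09 (adjusted p = 0.00123) and -0.36 ± 0.07 (adjusted p = 0.0054). With the other 12 libraries in the fit, Rdh10, Stra6, Crabp1 and Crabp2 did not pass (adjusted p = 0.0603 to 0.429).

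Igf2, the fetal insulin-like growth factor, had 3152, 2596, 3049 and 2584 CPM in the middle phalanges, against 4200.1, 3256, 4838 and 3559.9 CPM in the proximal phalanges. The groups did not overlap, and the fold change was -0.47 ± 0.07 (adjusted p = 0.0011). The binding protein Igfbp4 averaged 832 ± 95.8 CPM in middle and 1134 ± 154 CPM in proximal phalanges, at -0.44 ± 0.05 (adjusted p = 0.00034), and Igfbp2 was higher, at 0.35 ± 0.05 (adjusted p = 0.00122). H19, the imprinted RNA next to Igf2, had -0.30 ± 0.08 (adjusted p = 0.0322), Igfbp5 -0.28 ± 0.06 (adjusted p = 0.0148) and Pappa, a protease of binding proteins, 0.60 ± 0.14 (adjusted p = 0.0176). Calls lost without a pair were those of H19 without the E16 hindlimb, E17 forelimb or E17 hindlimb pair (adjusted p = 0.0611 to 0.146), Igfbp5 without the E17 hindlimb pair (adjusted p = 0.122) and Pappa without the E16 forelimb, E17 forelimb or E17 hindlimb pair (adjusted p = 0.0698 to 0.0892). When all 20 libraries were fitted, Igf2, Igfbp4, Igfbp2, H19, Igfbp5 and Pappa did not pass (adjusted p = 0.0587 to 0.177).

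In the FGF list 5 of 22 were higher and 1 lower, against 4.27% and 4.91% of all genes. Fgf2 averaged 86.6 ± 15.4 CPM in middle and 64.8 ± 15.5 CPM in proximal phalanges, at 0.43 ± 0.06 (adjusted p = 0.00123). Etv4, Fgf10 and Fgfr4 had 0.63 ± 0.15 (adjusted p = 0.0199), 0.50 ± 0.13 (adjusted p = 0.0282) and 1.499 ± 0.37 (adjusted p = 0.0265), and Fgf7 -1.04 ± 0.22 (adjusted p = 0.0103). The Hedgehog targets Ptch1 and Gli1 had 0.10 ± 0.05 (adjusted p = 0.356) and -0.01 ± 0.07 (adjusted p = 0.959). Of 13 tested Hedgehog genes 3 were higher, against 4.27% of all genes. Gas1 and Sufu passed with Gli3, at 0.27 ± 0.07 (adjusted p = 0.0329) and 0.28 ± 0.06 (adjusted p = 0.0133). Of 16 tested Notch genes 1 was higher and 1 lower, shares near the 4.27% and 4.91% of all genes. They were Jag2, a ligand, at 0.28 ± 0.08 (adjusted p = 0.0457) and Heyl, a target, at -0.63 ± 0.13 (adjusted p = 0.01). Left-out pairs ended the calls of Etv4 without the E16 forelimb or E16 hindlimb pair (adjusted p = 0.083 to 0.129), Fgf10 without the E16 forelimb or E16 hindlimb pair (adjusted p = 0.115 to 0.181), Fgfr4 without the E16 forelimb or E17 forelimb pair (adjusted p = 0.0941 to 0.164) and Fgf7 without the E16 forelimb pair (adjusted p = 0.0675). They also ended those of Gas1 without the E16 forelimb, E16 hindlimb or E17 hindlimb pair (adjusted p = 0.0881 to 0.177), Sufu without the E16 forelimb or E17 forelimb pair (adjusted p = 0.0652 to 0.0749), Jag2 without the E16 forelimb, E16 hindlimb or E17 hindlimb pair (adjusted p = 0.0697 to 0.182) and Heyl without the E16 forelimb pair (adjusted p = 0.078). With the other 12 libraries added, Fgf2, Etv4, Fgf10, Fgfr4, Gas1, Sufu, Gli3, Jag2 and Heyl did not pass (adjusted p = 0.104 to 0.454).

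Krt84 and Krt36, keratins of nail and hair, led the 12 highest fold changes and stayed far below their level at the digit tip. Krt84 had 67.2, 73.9, 29.9 and 20.2 CPM in the middle phalanges, against 0, 0.618, 0.578 and 3.87 CPM in the proximal phalanges, and Krt36 averaged 39.9 ± 20.2 CPM in middle and 1.79 ± 1.70 CPM in proximal phalanges. The fold changes were 5.51 ± 0.80 (adjusted p = 0.00104) and 4.64 ± 0.47 (adjusted p = 8.97e-05). In the distal phalanx of digit 2, which carries the nail, Krt84 had 5350.5, 4432, 6696 and 7150.5 CPM, so the middle level was 0.79% of the way from the proximal to the distal mean. Krt35 had 1.02 ± 0.28 (adjusted p = 0.0453). Of 15 listed nail genes 7 were tested, and 8, most of them hard keratins, were below the level filter. Of the 7 tested, 5 were higher and 0 lower, against 4.27% and 4.91% of all genes, with fold changes from 0.09, in another hard keratin, to 5.51. The 15 listed nail genes together took 138 to 247 CPM in middle and 63.6 to 86.2 CPM in proximal libraries and were higher in 4 of 4 pairs. This sum contains the called Krt84, Krt36 and Hoxc13, so it is no separate support. It also contains Lgr6, which averaged 62.8 CPM in middle and 50.1 CPM in proximal phalanges and made up much of the proximal sum. Krt81 was at 0 in all 8 libraries, and related keratins can share reads, so single members are uncertain. How much nail tissue entered the middle libraries was not tested. With 1 pair left out, the calls lost were those of Krt35 without the E16 forelimb, E16 hindlimb or E17 hindlimb pair (adjusted p = 0.105 to 0.143), which did not pass over all 20 libraries either (adjusted p = 0.243).

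Epidermal genes were higher where they passed, with 1 exception. Flg, filaggrin of the granular layer, had 3.19, 0.917, 146 and 178 CPM in the middle phalanges, against 0.165, 0.309, 17.3 and 37.8 CPM in the proximal phalanges. Both groups were far higher at E17, the middle library was above its pair in 4 of 4, and the fold change was 2.71 ± 0.22 (adjusted p = 1.97e-05). Krt5, the keratin of basal epidermis, had 0.43 ± 0.07 (adjusted p = 0.0032), Epcam 0.47 ± 0.07 (adjusted p = 0.00124) and Dsg1a, a desmosomal cadherin, 0.41 ± 0.06 (adjusted p = 0.00152). Krt17 and Krt16, keratins of appendages and of palmar and plantar skin, averaged 341 ± 131 and 36.3 ± 19.9 CPM in middle phalanges, against 149 ± 69.4 and 14.1 ± 7.24 CPM in proximal phalanges, at 1.21 ± 0.11 (adjusted p = 4.42e-05) and 1.36 ± 0.18 (adjusted p = 0.000632). Klf4, a barrier factor, had -0.29 ± 0.06 (adjusted p = 0.00757). Of 20 epidermal genes 5 were higher and 1 lower, against 4.27% and 4.91% of all genes, with a median of 0.19, and their sum was higher in 3 of 4 pairs. Foxi3, an ectodysplasin target, had 1.36 ± 0.29 (adjusted p = 0.0118). The calls that ended on omission of a pair were those of Klf4 without the E17 hindlimb pair (adjusted p = 0.0655) and Foxi3 without the E16 forelimb pair (adjusted p = 0.0897). In the fit over all 20 libraries Flg, Klf4 and Foxi3 did not pass (adjusted p = 0.0887 to 0.32).

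Markers of nerve, pigment, blood, muscle and other cells were counted next. Of 13 genes of Schwann cells and nerves 4 were lower, against 4.91% of all genes, among them S100b at -1.34 ± 0.30 (adjusted p = 0.0142) and Gap43, a protein of growing axons, at -0.50 ± 0.09 (adjusted p = 0.00341), and Erbb3 was higher at 0.22 ± 0.06 (adjusted p = 0.0349). The list summed to 379 to 436 CPM in middle and 364 to 503 CPM in proximal libraries. Of 3 tested melanocyte genes 2 were lower, against 4.91% of all genes. Pmel and Kit, a receptor that other cells also make, had -1.25 ± 0.32 (adjusted p = 0.0308) and -0.44 ± 0.09 (adjusted p = 0.00836). Of 12 macrophage genes 1 passed, Tyrobp at -0.73 ± 0.15 (adjusted p = 0.00862), a share near the 9.19% of all genes. Of 14 tested muscle genes 2 were higher and of 10 tested erythroid genes 2, against 4.27% of all genes. The muscle genes Acta1 and Myh3 had 0.70 ± 0.14 (adjusted p = 0.00885) and 0.73 ± 0.20 (adjusted p = 0.0442). The erythroid genes Alas2 and Hba-a1, which has a near-identical copy, had 0.36 ± 0.08 (adjusted p = 0.0121) and 0.25 ± 0.07 (adjusted p = 0.0426). None of 20 cell cycle, 12 endothelial or 13 mitochondrially encoded genes passed in edgeR. Their medians were 0.06, -0.05 and -0.09. An unadjusted p under 0.05 was seen for 2, 1 and 3 of them, and DESeq2 called 0 in each list. Omitting a pair ended the calls of S100b without the E16 hindlimb or E17 hindlimb pair (adjusted p = 0.0613 to 0.0805), Erbb3 without the E16 forelimb, E17 forelimb or E17 hindlimb pair (adjusted p = 0.103 to 0.16) and Pmel without the E16 forelimb, E17 forelimb or E17 hindlimb pair (adjusted p = 0.0727 to 0.135). The calls that ended included those of Acta1 without the E17 hindlimb pair (adjusted p = 0.0738), Myh3 without the E16 forelimb, E16 hindlimb or E17 hindlimb pair (adjusted p = 0.103 to 0.209), Alas2 without the E16 forelimb or E17 hindlimb pair (adjusted p = 0.0586 to 0.0804) and Hba-a1 without the E16 forelimb, E17 forelimb or E17 hindlimb pair (adjusted p = 0.0521 to 0.33). Over all 20 libraries, S100b, Erbb3, Pmel, Tyrobp, Acta1, Myh3, Alas2 and Hba-a1 did not pass (adjusted p = 0.06 to 0.77).

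**Figure D3:**
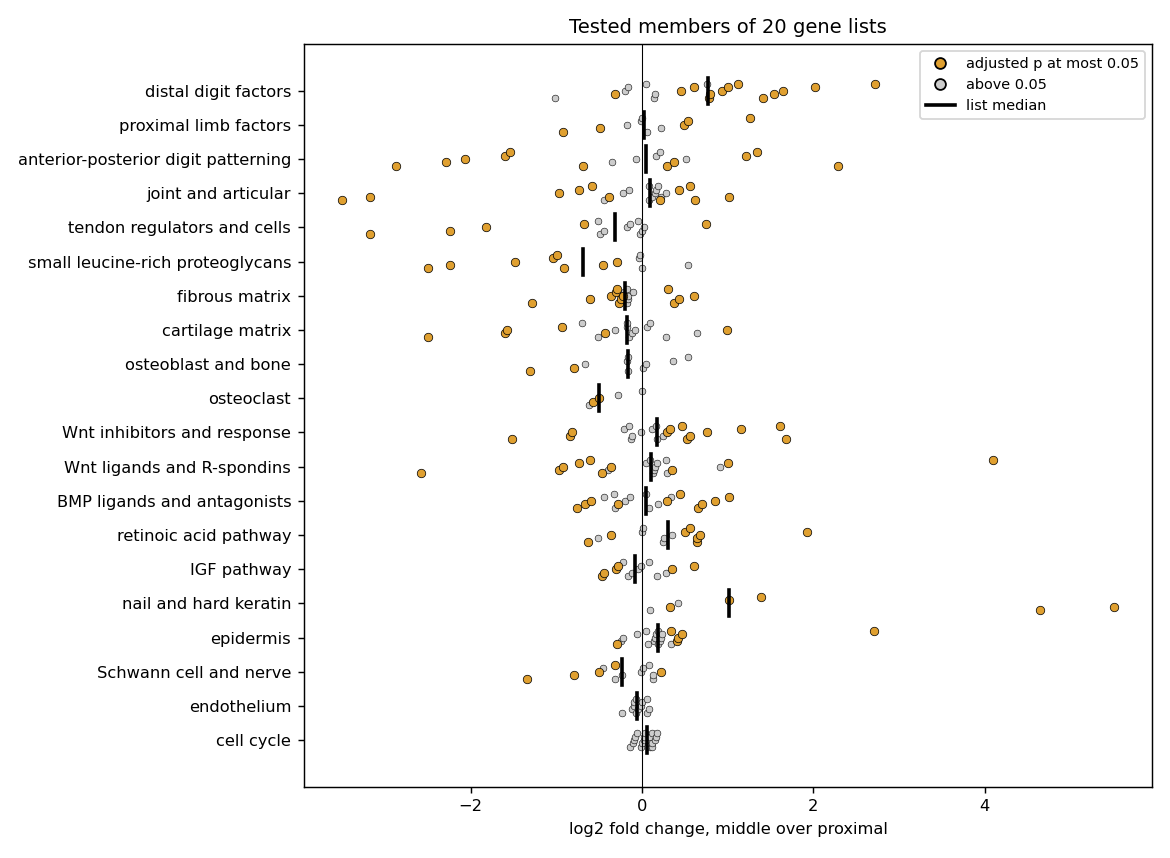
Log2 fold change of the middle over the proximal phalanx for the tested members of 20 gene lists, 1 point a gene, orange where the adjusted p was at most 0.05, with a bar at each list's median. Of the lists drawn, the small leucine-rich proteoglycans lie furthest below 0 by median (-0.68), the distal digit factors and nail genes furthest above (0.77 and 1.02), and the cell cycle and endothelial lists stay within 0.23 of 0.

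The distal phalanx of digit 2 places these levels along the digit, as a description without a test because the same middle and proximal libraries enter. In a first set the middle phalanx stood between its neighbours in 4 of 4 stage and limb combinations. Mean CPM in distal, middle and proximal phalanges was 608, 473 and 231 for Wnt5a, 442, 76.0 and 39.9 for Msx1, 69.96, 39.4 and 13.2 for Lhx9 and 59.0, 31.4 and 4.48 for Sall1, falling towards the base. It was 111, 166 and 284 for Hoxd13, 6.18, 18.4 and 55.5 for Hand2, 11.9, 47.5 and 213 for Kera, 4.02, 21.5 and 33.2 for Bmpr1b and 3.42, 39.5 and 59.8 for Irx1, rising towards the base. Msx1 and Msx2 in the middle phalanx had covered 9.0% and 8.1% of the way from the proximal to the distal mean, while Wnt5a had covered 64.3% and Hoxd13 68.2%.

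In a second set the middle phalanx was the highest of the 3 segments in 4 of 4 combinations. Sim2 averaged 1.09, 17.9 and 1.82 CPM in distal, middle and proximal phalanges, Epha7 42.9, 138 and 54.7, Pax9 5.45, 14.9 and 3.14 and Meis1 11.1, 25.0 and 10.4. Gdf5 averaged 10.7, 71.4 and 32.8, Sfrp1 40.1, 85.6 and 26.7, Matn4 45.6, 169 and 88.2 and Tfap2b 191, 241 and 88.5. The same held for Adcyap1, Dkk4, Nkd2, Sostdc1 and Rdh10. In digit 1, which has no middle phalanx, the proximal phalanx averaged 8.995 ± 5.39 CPM of Sim2 and 74.8 ± 29.8 CPM of Epha7 (SD, n = 4), between the middle and proximal means of digit 2 for both genes. The other genes just named also lay between, except Matn4 and Dkk4. These averaged 71.6 and 1.37 CPM there, below their proximal means in digit 2 (88.2 and 2.22 CPM). Pax9 averaged 14.1 ± 10.2 CPM in the proximal and 19.5 ± 17.1 CPM in the distal phalanx of digit 1, the latter above its middle mean in digit 2. Some genes called lower, among them Aspn, Alpl, Panx3 and Enpp1, were lowest in the middle phalanx of digit 2 in 4 of 4 combinations. Aspn averaged 324, 101 and 209 CPM in distal, middle and proximal phalanges, and Alpl 104, 11.2 and 26.9. Panx3 averaged 4.74, 0.786 and 3.10 CPM in the same order, and Enpp1 58.7, 29.0 and 43.9. Their levels thus did not fall steadily towards the tip.

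**Figure D4:**
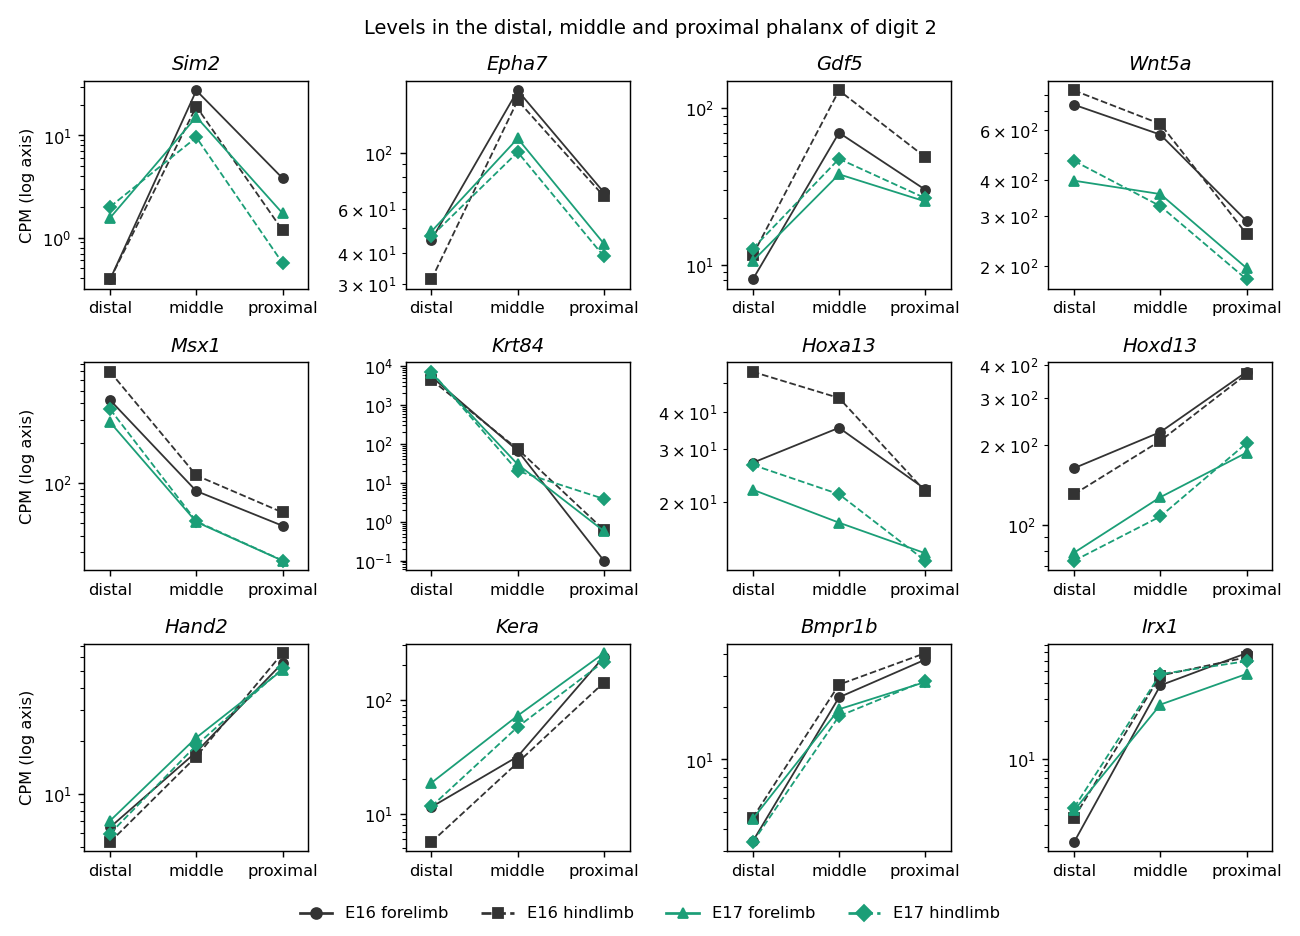
CPM on a log axis along digit 2, from the distal to the proximal phalanx, for 12 genes, with 1 line per stage and limb; 0 is drawn at 0.1. Sim2, Epha7 and Gdf5 peak in the middle phalanx in 4 of 4 lines, Hoxd13, Hand2, Kera, Bmpr1b and Irx1 climb towards the proximal phalanx, and Krt84 averages 5907 CPM in the distal and 47.8 CPM in the middle phalanx.

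Whether the middle to proximal difference changed with stage was tested over all 20 libraries. Sall1 was the 1 gene that passed, 0.00703% of those tested. It had 44.7, 45.6, 18.5 and 16.9 CPM in the middle phalanges, against 5.23, 2.03, 6.41 and 4.27 CPM in the proximal phalanges. The middle library was higher in 4 of 4 pairs, and the E16 middle libraries held more than the E17 ones. The fold change was 1.75 within E17 and 3.75 within E16, and the difference E17 minus E16 was -2.01 ± 0.23 (adjusted p = 0.0236), with an adjusted p of 0.375 in the 8 libraries alone. Stage cannot be told apart from the number of embryos pooled or from the count table of that stage. The next smallest p-values belonged to Snrpn, Rsc1a1, Ddi2, Col22a1 and Gjb6, with differences of 5.77, 8.46, -0.81, -1.66 and 0.68 (adjusted p = 0.0725 to 0.93). Rsc1a1 and Ddi2 share a locus, so their counts are uncertain. Of all genes 511 had an unadjusted p under 0.05. The called genes kept their sign within E17 in 1307 of 1307 cases and within E16 in 1305 of 1307. The same libraries had picked these genes, so this agreement follows largely from the calling and does not test stability between stages.

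No gene passed the same test between limbs over 20 libraries, where 551 had an unadjusted p under 0.05, and 9 passed in the 8 libraries alone. Tbx5, the T-box factor that specifies the forelimb, had 98.0, 17.2, 59.2 and 10.4 CPM in the middle phalanges, against 90.9, 1.95, 73.1 and 2.249 CPM in the proximal phalanges. In the hindlimb the middle libraries were the higher ones at both stages, and in the forelimb the groups were close. The fold change was 2.67 within the hindlimb and -0.10 within the forelimb. The difference hindlimb minus forelimb was 2.77 ± 0.49 (adjusted p = 0.888) over 20 libraries and 2.75 in the 8 alone (adjusted p = 0.000184). Pitx1 stayed at or under 0.61 CPM in the forelimb libraries, which does not bear on forelimb tissue in hindlimb pools. Whether forelimb tissue entered the hindlimb middle pools was not tested. The fold change of Krt16 was 1.89 within the hindlimb and 0.83 within the forelimb, and that of Alpl was -1.83 and -0.91. Npl, a lyase of sialic acid, had -0.36 and 0.74, and Ccl21a, a chemokine of lymphatic vessels with near-identical copies, had -4.11 and -0.55. Dkk3 and Ces2g completed the genes with the smallest p-values, with differences of 0.60 and -0.99.

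**Figure D5:**
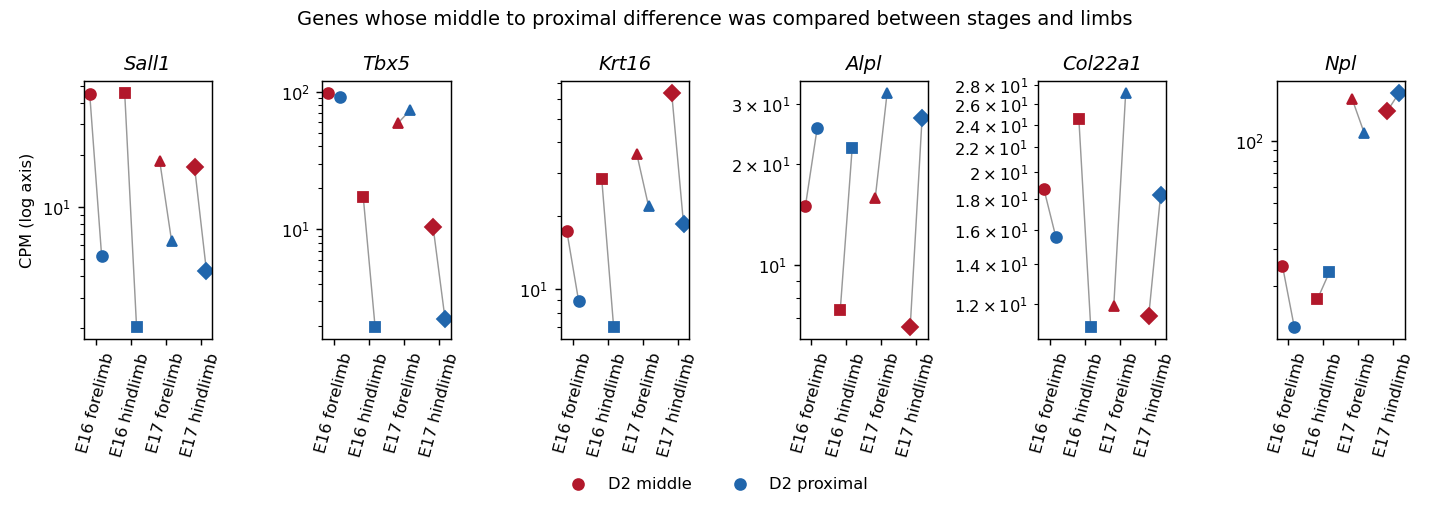
CPM on a log axis of the middle (red, left) and proximal (blue, right) library of each matched pair for 6 genes compared between stages or limbs. Sall1 pairs are further apart at E16 than at E17, and Tbx5 pairs are apart in the hindlimb (17.2 CPM in middle and 1.95 CPM in proximal at E16, 10.4 CPM in middle and 2.249 CPM in proximal at E17) and close in the forelimb.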

How the data were processed

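Messenger RNA of 20 mouse phalanx libraries was sequenced, and the 8 of the middle and proximal phalanx of digit 2 were compared. The authors deposited whole-number counts per gene symbol, 1 table per stage. Per the submitters' processing notes, HISAT2 2.2.1 and StringTie 2.1.7 were used with GRCm39. The counting step and annotation are not given in the sources used here. Per the labels' protocols the kit is not marked as strand-specific. The authors' second pair of tables, scaled within each stage, was not used.

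The tables were joined by symbol, giving 23988 genes, 23932 spelled alike and 56 matched by RefSeq synonyms, with 99.08% to 99.45% of the counts of each library. Genes that reached 1 CPM in 4 or more of the 8 libraries were tested with edgeR 4.0.16 in R 4.3.3: TMM factors, a term for each stage and limb pair as block, a term for position, quasi-likelihood F tests with 3 residual degrees of freedom, and Benjamini-Hochberg adjustment over 14229 genes, two-sided, with a threshold of 0.05. The fit drew each gene's spread towards a trend over all genes, with a median of 8.29 prior degrees of freedom beside the 3 residual ones. The common biological coefficient of variation was 12.6%. The block comes from the stage and limb labels, since middle and proximal libraries of a pair are alike in both. Changes of the difference with stage or limb were tested as interactions over all 20 libraries with 5 residual degrees of freedom, because the 8 alone leave fewer. CPM values use the TMM factors, and levels of other phalanges were brought to the same scale. Pair differences are of log2 CPM with 0.5 CPM added. The fit was tested on simulated counts, where the share of false calls came out above the threshold and small changes were recovered less often than large ones. With 70871735 to 85666188 counts a library, 1 CPM is at least 70 reads.

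Named genes were the 12 highest and 12 lowest fold changes, the 3 called members of each list with the smallest adjusted p in each direction, the tested members of the Hox, proximal limb, distal digit, phalanx formation and joint lists, and the genes with the smallest p in each interaction. Some genes under this rule are not reported here. Others were chosen after their values were seen: Hottip, Gm31790, Lnpk, Mtx2, Atf2, Sim1, Pitx1, Hand1, Tbx4, Col3a1, Pax1, Tnmd, Scx, Mkx, Prelp, Lum, Ogn, Matn1, Col9a2, Col2a1, Acan, Col10a1, Sp7, Runx2, Dkk4, Dkk2, Axin2, Smoc2, Id3, Fgfr4, Fgf10, Stra6, Aldh1a1, H19, Ptch1, Gli1, Krt35, Krt5, Foxi3, Lgr6 and Ccl21a. The comparison, the 40 gene lists and the tests were chosen with earlier results of these data known.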

Additional observations from a re-analysis of the deposited data

Results flagged for a closer look

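In 7 of 242 named genes 1 of the 4 pair differences (log2, middle minus proximal) lay far from the other 3, where chance alone flags about 1 gene in 20. The E17 forelimb pair stood apart for Col12a1 at 0.04, with the others from 0.46 to 0.54, for Gap43 at -0.75, with the others from -0.42 to -0.39, and for Hoxc4 at -0.22, with the others from -0.61 to -0.55. The E17 hindlimb pair stood apart for Corin at -2.59, with the others from -1.96 to -1.93. The E16 hindlimb pair stood apart for Krt5 at 0.16, with the others from 0.49 to 0.54, and for Tyrobp at -0.90, with the others from -0.62 to -0.57. The E16 forelimb pair stood apart for Ptch1 at 0.21, with the other 3 at 0.06.

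Sall1 was the gene whose middle to proximal difference changed with stage past the threshold over all 20 libraries, by -2.01 on the log2 scale (E17 minus E16), while its middle library was the higher one in 4 of 4 pairs.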

How the results depend on the processing

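The main counts of 608 higher and 699 lower genes were stable within 1.5 times under DESeq2's size factors in edgeR (617 and 697), a filter of 5 CPM, no filter (425 and 539), DESeq2 1.42.0 (796 and 890) and, with no replicate block but terms for stage and limb, 617 and 729. With neither block nor those terms 35 and 57 genes passed, in a fit that leaves stage and limb in the residual spread. The fit over all 20 libraries, whose spread includes distal and digit 1 libraries, called 271 and 294. Leaving out 1 pair gave 338 to 508 higher and 447 to 646 lower genes. Without the E16 forelimb pair 338 and 447 passed, and without the E17 hindlimb pair 386 and 463. Within E16 alone 381 and 412 passed and within E17 alone 351 and 467, with 1 residual degree of freedom each. No gene was called in opposite directions between the main comparison and these settings. Of 172 named genes called, 121 were called on each omission of a pair and 51 were not. Within E16, E17, the forelimb and the hindlimb alone, 40, 49, 26 and 24 of the named calls were lost. Uncalled genes that changed sign and passed were Col22a1 within E16 (0.714) and Npl within the hindlimb (-0.358), and within E17 Ddi2 (-0.324) and Gjb6 (0.318). The stage interaction called 1 gene over 20 libraries and 0 in the 8 alone, where 818 had an unadjusted p under 0.05. The limb interaction called 0 over 20 libraries and 9 in the 8 alone. The cause of these shifts was not tested. Levels near 1 CPM carry the widest errors.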
